A study of Mus musculus with 11 samples.

Results

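Genes of MHC class I antigen presentation were followed in whole distal tibiae of mice with and without diphtheria toxin A (DTA) expression in bone marrow adipocytes (BMAds). The 9 genes were chosen by symbol as rows of the merged count table, and they were 9 of its 22600 rows. They encode the classical heavy chains (H2-K1 and H2-D1), the light chain (B2m), the peptide transporter (Tap1 and Tap2), tapasin (Tapbp), the transcriptional activator of the class (Nlrc5) and a pair of immunoproteasome subunits (Psmb8 and Psmb9). All 9 passed the filter on low counts, which left 16496 genes to test.

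RNA came from 4 Control mice, whose genotype is labelled BMAd-WT, and from 7 mice of the BMAd-DTA genotype. Each mouse gave 1 library, and all mice were 24 weeks old, fed ad libitum and of C57BL6/SJL strain. Per the study's methods, both groups carried Osterix-FLPo and the FLPo-activated Adipoq-Cre (FAC), so the controls had the Cre as well, and only BMAd-DTA mice carried the ROSA-DTA allele, in which a LoxP-flanked STOP cassette precedes the toxin. Cre was active in BMAds and in a small subset of the Adipoq-expressing stromal precursors of the marrow, and its recombination is not complete. The comparison asks how the class I genes of the whole bone differ when BMAds are depleted, and in such bulk RNA fewer cells of a type and less RNA per cell cannot be told apart.

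MHC class I molecules are found on nearly all nucleated cells and show short peptides from the cell's own proteins to CD8 T cells. The proteasome cuts proteins into peptides, TAP carries the peptides into the endoplasmic reticulum, tapasin holds TAP beside the empty heavy chain and beta-2-microglobulin pair, and the loaded complex goes to the cell surface. NK cells read the same molecules through inhibitory receptors. Interferon-gamma induces the whole pathway, with IRF1 and NLRC5 among the factors it acts through, and it also replaces the standard catalytic subunits of the proteasome with PSMB8, PSMB9 and PSMB10, which favour peptides that fit class I grooves. The marrow holds many leukocytes, in which these genes are well expressed.

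Of the 9 genes, 7 lie in the MHC region of chromosome 17, B2m is on chromosome 2 and Nlrc5 on chromosome 8 (positions are from GENCODE M21, on the GRCm38 build, which mm10 shares). H2-K1 spans chr17:33996017-34000347 on the minus strand and H2-D1 chr17:35262730-35267499 on the plus strand. B2m spans chr2:122147686-122153083 on the plus strand. Tap1 (chr17:34187553-34197225, plus strand) and Psmb9 (chr17:34181987-34187764, minus strand) stand head to head and overlap by 212 bases at their 5′ ends, so that their counts are told apart there by strand. Psmb8 (chr17:34197721-34201454), Tap2 (chr17:34203527-34216321) and Tapbp (chr17:33915899-33929292) are all on the plus strand, as is Nlrc5 (chr8:94434356-94527272). The heavy chains belong to a family of near-identical copies. Of the 2003 windows of 100 bases in the longest coding transcript of H2-D1, 4.64% were identical to a stretch of another gene, among them H2-Q6, H2-Q7 and H2-T22, and a read pair that lies wholly in such stretches would map to more than 1 place. None of the 1520 windows of H2-K1 was shared in this way.

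The members are known to share regulatory elements, and the 250 bases upstream of RefSeq's start were read for the 7 of the 9 that matched in its promoter table (GRCm38.p6). For H2-D1, Tapbp, Psmb8 and Psmb9 that start lies inside the GENCODE span given above, so their windows are within the gene as GENCODE draws it. Tap2 and Nlrc5 did not match. H2-K1 and B2m are shown whole, since they hold most of the motifs looked for and encode the partner chains of the complex. Capitals mark GGGANNNCC (the NF-kB element), TTTCNNTTC and TTCNNTTTC (forms of an interferon response element with the same spacer), TGACG (part of the X box) and CCAAT (the Y box), searched on both strands. ATTGG is the Y box, and the element in B2m the interferon element, read on the other strand.
H2-K1, chr17:34000348-34000597, minus strand: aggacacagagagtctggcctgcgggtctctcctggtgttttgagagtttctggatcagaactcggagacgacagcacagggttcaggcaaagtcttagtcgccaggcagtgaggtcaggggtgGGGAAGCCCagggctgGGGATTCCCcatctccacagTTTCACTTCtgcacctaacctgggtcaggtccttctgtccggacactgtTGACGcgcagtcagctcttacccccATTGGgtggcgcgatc
B2m, chr2:122147437-122147686, plus strand: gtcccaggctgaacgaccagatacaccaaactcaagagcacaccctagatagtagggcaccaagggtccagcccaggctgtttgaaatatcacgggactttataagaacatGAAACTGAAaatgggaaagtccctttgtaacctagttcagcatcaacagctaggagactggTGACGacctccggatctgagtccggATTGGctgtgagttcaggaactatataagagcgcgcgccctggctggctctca

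The NF-kB and interferon letters of H2-K1 recur in H2-D1. The stretch from the second NF-kB match to the interferon element is 29 bases long in both, and it differs at 1 base. It is shown because these are the heavy chains whose counts are compared below.
H2-K1, chr17:34000429-34000457, minus strand: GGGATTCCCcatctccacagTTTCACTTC
H2-D1, chr17:35262924-35262952, plus strand: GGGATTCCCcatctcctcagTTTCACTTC

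TGACG was found upstream of 5 of the 7 members (H2-K1, H2-D1, B2m, Tap1 and Psmb9) and in 17.7% of the 32817 promoters of the table. CCAAT was found in 6 of the 7, all except Psmb8, and in 33.8% of all promoters. GGGANNNCC was in H2-K1 and H2-D1, with a pair of matches in each, and in 15.8% of all promoters. TTCNNTTTC was in B2m and in 7.12% of all promoters, and TTTCNNTTC, which was added after the sequences were read, was in H2-K1 and H2-D1 and in 6.31%. TTCNNNGAA, the gamma-activated site, was in Psmb8 and in 7.01%. The upstream windows of Tap1 and Psmb9 are the same DNA read from both strands over 225 bases. Their TGACG matches are the same site, and so are their CCAAT matches, so each of these sites is counted for both genes. A match describes the letters and says nothing of binding.

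The merged table held 16969529 to 18637663 counts per library, and TMM scaling factors lay between 0.968 and 1.04. Levels are CPM, the counts scaled to a common depth on the TMM-scaled library sizes. In every library, summed CPM of 6 pan-leukocyte markers was between 2480 and 2947 and that of 8 osteoblast and osteocyte markers was 1793 or more, so markers of marrow and of bone were both present throughout. Xist had 13810 to 20260 counts in every library, and 4 genes of the Y chromosome together had at most 1. These are the counts of female mice in all 11 libraries. The study's legends name male mice, and the labels do not state the sex. For the class I genes, Control replicates 1 and 4 stood apart. They were the highest pair of libraries for all 9 genes, with Control replicate 1 highest for 7 and Control replicate 4 for Nlrc5 and Psmb8.

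Levels between genes were compared per kb of exon length. B2m was the most abundant member at a mean of 1523 CPM per kb over the 11 libraries (range 1176 to 2623), followed by H2-D1 at 515 (397 to 696) and H2-K1 at 230 CPM per kb (175 to 346). The ranges of these 3 genes did not overlap, so the light chain exceeded both heavy chains and H2-D1 exceeded H2-K1 in every library. Tapbp came next at 52.0 CPM per kb (43.9 to 64.4). Psmb8 at 29.6, Tap2 at 27.3 and Tap1 at 26.1 CPM per kb were not separated beyond their spread, with ranges of 24.6 to 38.2, 24.2 to 31.3 and 19.3 to 44.1. Psmb9 at 12.5 (9.43 to 20.2) and the activator Nlrc5 at 7.79 CPM per kb (5.24 to 12.0) were lowest, and their ranges overlapped. The length used is the union of all exons, which exceeds the longest coding transcript unevenly. It is 3660 against 1352 bases for Psmb9, 3381 against 1628 for Psmb8, 5476 against 2953 for Tap1 and 3781 against 3442 for Tap2. For the heavy chains it is 2938 against 1619 bases (H2-K1) and 2579 against 2102 (H2-D1). The order below H2-K1, and which ranges overlap, therefore depend on the length chosen. This includes the gap between the ranges of H2-D1 and H2-K1. All 9 were well covered, from 621 counts for Psmb9 to 40932 for B2m in a library.

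In edgeR's quasi-likelihood test no member reached an adjusted p under 0.05 between the groups, and the fitted log2 fold change of BMAd-DTA over Control was below 0 for all 9. It ran from -0.44 for Tap1 to -0.13 for Tap2, with a median of -0.29, beside a median of 0.0018 over all genes tested. Among all genes tested 13, or 0.0788%, passed that threshold, and 49.6% of genes had a fold change below 0. At an unadjusted p under 0.05, 2 of the 9 (Tap1 and Psmb9) had a fold change below 0, where 8.53% of all genes did. That count of 2 was 8 without Control replicate 2, 4 without Control replicate 3, and 0 without Control replicate 1, without Control replicate 4 or without BMAd-DTA replicates 1, 3 or 7. No member had every BMAd-DTA library below every Control library, which held for 1.04% of all genes. In DESeq2, which called 5.42% of the genes it tested, no member passed either. The members vary together across libraries, so their shared sign is not 9 separate observations.

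**Figure D1:**
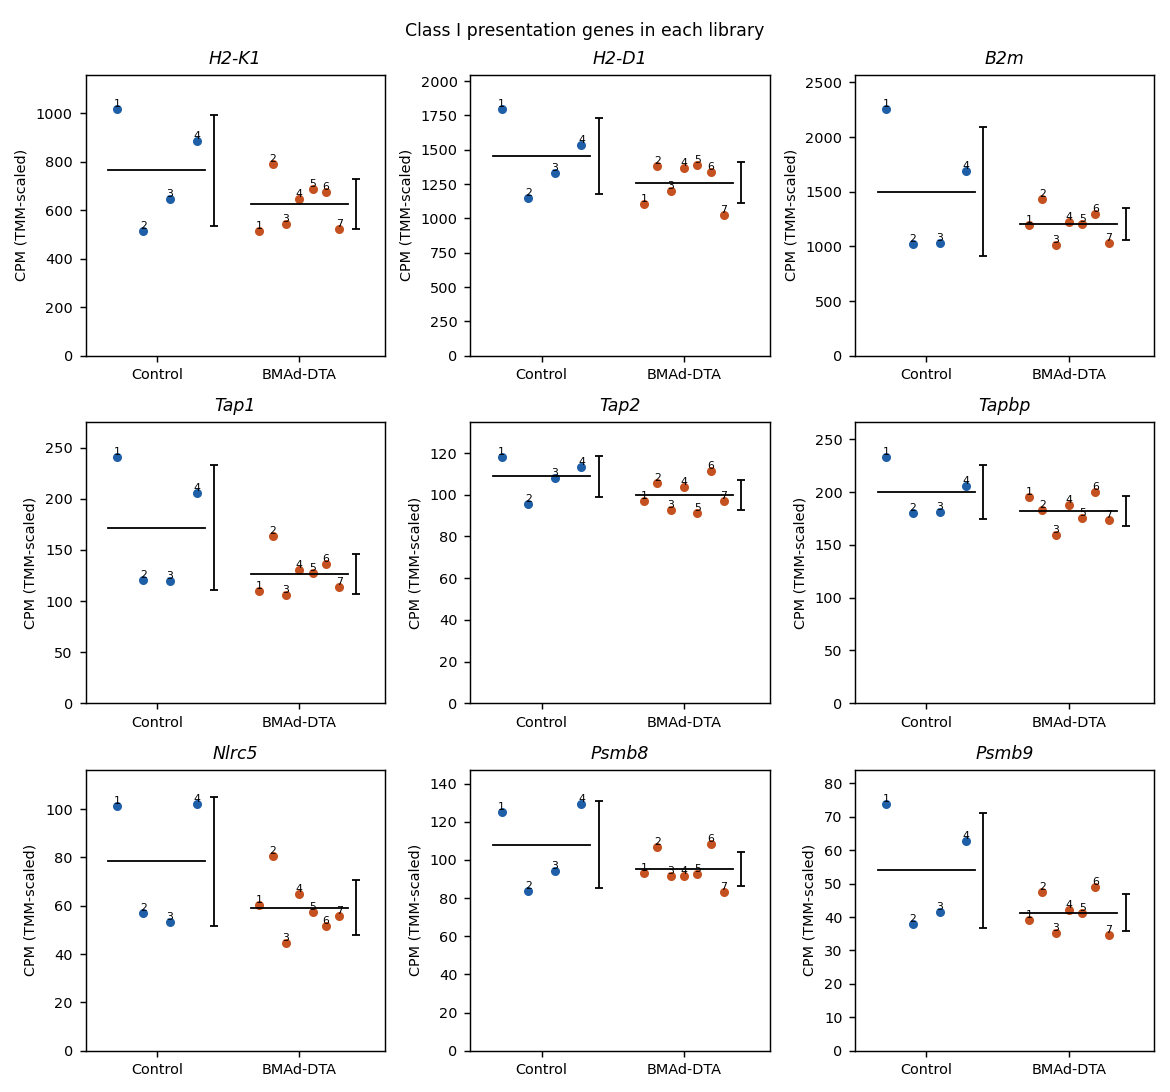
CPM on TMM-scaled library sizes (y axis, linear from 0) of each gene in 4 Control and 7 BMAd-DTA libraries, with replicate numbers beside the points, the group mean as a line and the SD as a bar. Control replicates 1 and 4 sit above every other library in all 9 panels, and Control replicates 2 and 3 lie among or, for H2-K1 in replicate 2, just below the BMAd-DTA libraries.

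H2-K1, a heavy chain that binds the peptide, was at 1017, 513, 645 and 884 CPM in Control replicates 1 to 4. In BMAd-DTA mice its lowest, median and highest values were 516, 648 and 792 CPM. Control replicate 2 was the lowest of all 11 libraries although Control replicates 1 and 4 were above every BMAd-DTA library, and Control replicate 3 was within the BMAd-DTA range. The means were 765 ± 228 CPM in controls (SD, n = 4) and 626 ± 103 CPM in BMAd-DTA mice (SD, n = 7). The log2 fold change was -0.29 (95% confidence interval -0.66 to 0.08, edgeR adjusted p = 0.434).

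H2-D1, the other classical heavy chain of the reference strain, was at 1796, 1148, 1333 and 1531 CPM in the controls and between 1024 and 1390 CPM in BMAd-DTA mice, with a median of 1337. BMAd-DTA replicates 1 and 7 were below every control, and the other 5 overlapped with Control replicates 2 and 3. The log2 fold change was -0.21 (95% confidence interval -0.47 to 0.06, edgeR adjusted p = 0.438). H2-D1 had the smaller spread of the heavy chains among controls, with an SD of 0.28 on the log2 scale beside 0.45 for H2-K1.

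B2m encodes beta-2-microglobulin, without which the heavy chains do not reach the surface. It was at 2256, 1025, 1032 and 1689 CPM in Control replicates 1 to 4, and its lowest, median and highest values in BMAd-DTA mice were 1011, 1207 and 1437 CPM. Control replicates 2 and 3 were thus near the bottom of the BMAd-DTA range. Its SD on the log2 scale was 0.56 among controls and 0.18 among BMAd-DTA mice. The means were 1500 ± 592 CPM in controls (SD, n = 4) and 1201 ± 147 CPM in BMAd-DTA mice (SD, n = 7), with a log2 fold change of -0.32 (95% confidence interval -0.74 to 0.09, edgeR adjusted p = 0.434).

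Tap1 and Tap2 encode the paired chains of the peptide transporter. Tap1 was at 241, 121, 120 and 206 CPM in the controls, and at 106, 127 and 164 CPM as the lowest, median and highest of the BMAd-DTA libraries. It had the largest fitted difference of the 9 genes, 172 ± 61.5 CPM in controls (SD, n = 4) against 127 ± 19.9 CPM in BMAd-DTA mice (SD, n = 7), a log2 fold change of -0.44 (95% confidence interval -0.84 to -0.04). Its unadjusted p was 0.0331, and edgeR's adjusted p over all genes was 0.252. BMAd-DTA replicates 1, 3 and 7 lay below every control, while Control replicates 2 and 3 were within the BMAd-DTA range.

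Tap2 was far more even, at 118, 95.4, 108 and 114 CPM in the controls and at 91.5, 97.0 and 111 CPM as the lowest, median and highest of the BMAd-DTA libraries. Its highest library was 1.29 times its lowest, beside 2.29 times for Tap1. The log2 fold change was -0.13 (95% confidence interval -0.28 to 0.03, edgeR adjusted p = 0.417). Tapbp, the tapasin that bridges transporter and heavy chain, was at 234, 180, 181 and 205 CPM in the controls and at 159, 183 and 200 CPM as the lowest, median and highest of the BMAd-DTA libraries. As with Tap2, its libraries were close together, and its log2 fold change was -0.14 (95% confidence interval -0.32 to 0.04, edgeR adjusted p = 0.443).

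Nlrc5, which activates class I genes whose promoters hold X and Y boxes, was at 101, 56.8, 53.5 and 102 CPM in the controls. Its BMAd-DTA libraries ran from 44.5 through a median of 57.3 to 80.6 CPM. Control replicates 1 and 4 were nearly equal and above all others, and BMAd-DTA replicate 2 was the next. The log2 fold change was -0.40 (95% confidence interval -0.82 to 0.01, edgeR adjusted p = 0.319).

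Psmb8 and Psmb9 are catalytic subunits of the immunoproteasome. Psmb8 was at 125, 83.7, 94.0 and 129 CPM in the controls and at 83.1, 92.6 and 108 CPM as the lowest, median and highest of the BMAd-DTA libraries, and its log2 fold change was -0.18 (95% confidence interval -0.43 to 0.07, edgeR adjusted p = 0.472). Psmb9 was at 73.8, 38.0, 41.4 and 62.7 CPM in the controls and at 34.5, 41.3 and 49.0 CPM as the lowest, median and highest of the BMAd-DTA libraries. Control replicates 2 and 3 were inside the BMAd-DTA range for both subunits. Psmb9 averaged 54.0 ± 17.2 CPM in controls (SD, n = 4) and 41.2 ± 5.55 CPM in BMAd-DTA mice (SD, n = 7), a log2 fold change of -0.39 (95% confidence interval -0.75 to -0.03). Its unadjusted p was 0.0361 and its edgeR adjusted p 0.263.

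**Figure D2:**
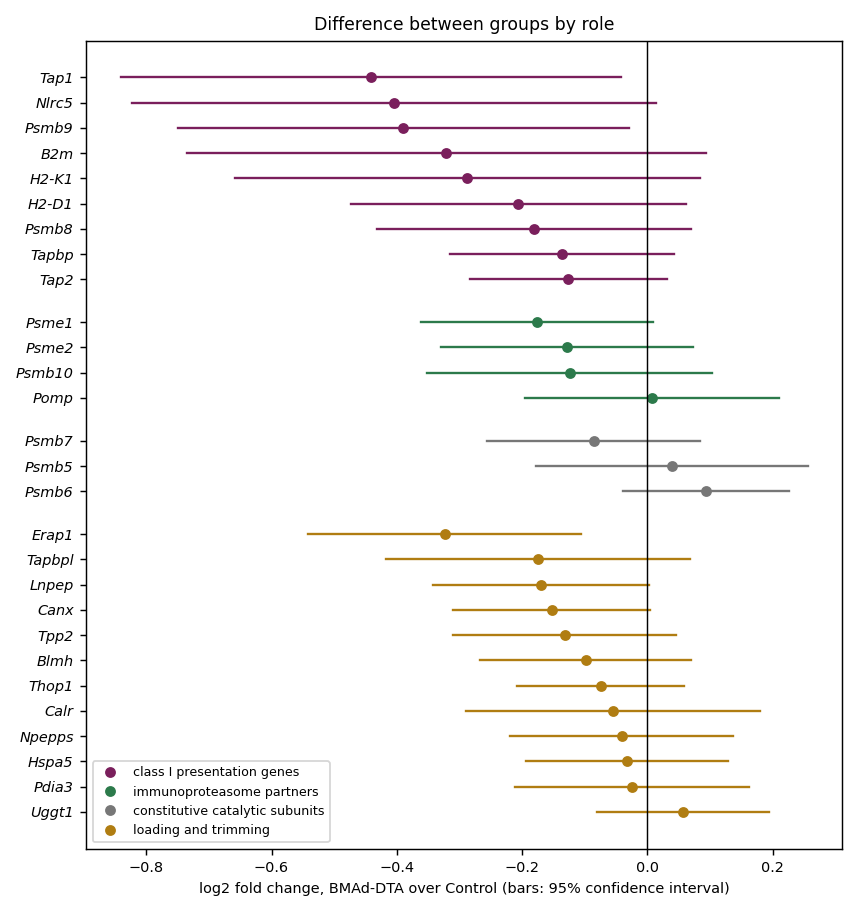
Log2 fold change of BMAd-DTA over Control with its 95% confidence interval from edgeR (x axis) for the 9 class I presentation genes, 4 immunoproteasome partners, 3 constitutive catalytic subunits and 12 loading and trimming genes. All 9 points of the first group are below 0, and only the intervals of Tap1 and Psmb9 in that group lie wholly below it, without adjustment for the number of genes.

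The size of these differences depended on single control libraries. Without Control replicate 1, the log2 fold change of B2m was -0.06, that of H2-K1 -0.12, that of Tap1 -0.23 and that of Psmb9 -0.20, and the median of the 9 was -0.10. Without Control replicate 4 the median was -0.21, and Nlrc5 was at -0.25 and Psmb8 at -0.08. Without Control replicate 2 the median was -0.44, and Tap1 was at -0.58. All 9 fold changes stayed below 0 with any 1 of the 11 libraries left out, and none of the 9 passed an adjusted p of 0.05 in edgeR in any of these fits. The lowest adjusted p among them was 0.101, for Tap1 without Control replicate 3.

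**Figure D3:**
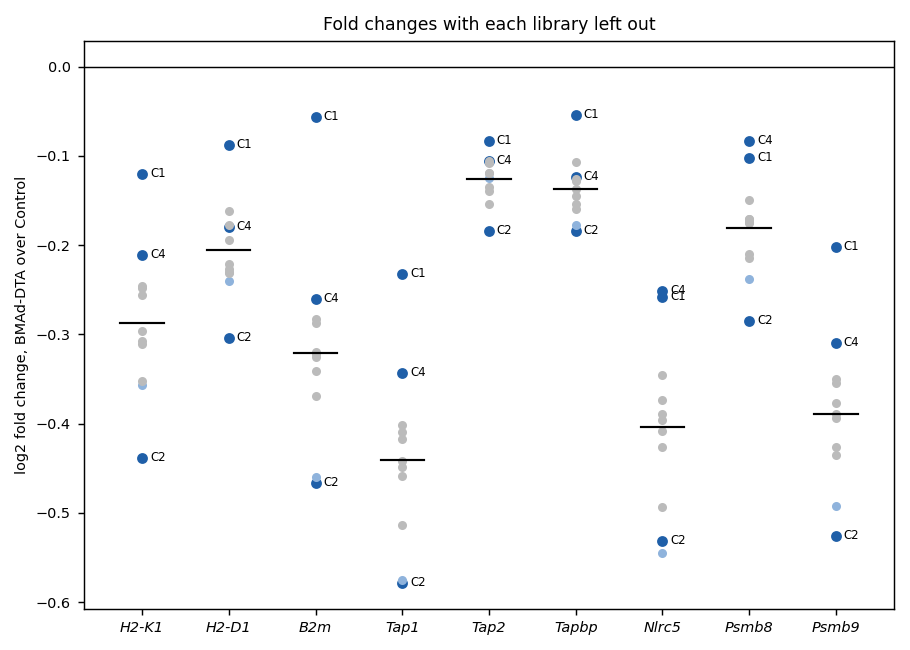
Log2 fold change of BMAd-DTA over Control (y axis) of each gene with each of the 11 libraries left out in turn. The line is the value with all libraries, dark blue points labelled C1, C2 and C4 leave out that Control replicate, light blue leaves out Control replicate 3, and grey leaves out a BMAd-DTA library. Without C1 the fold changes move towards 0 for all 9 genes, and without C2 away from it.

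The members followed one another from mouse to mouse. With group means removed, Pearson's r over the 11 libraries had a median of 0.83 over the 36 pairs of members and ran from 0.59 (Tap2 and Nlrc5) to 0.97 (B2m and Psmb9), and Spearman's rho had a median of 0.78. Without Control replicates 1 and 2, the libraries farthest from the median of the members' mean once group means were removed, the median r was 0.70 with a range of 0.31 to 0.95 over 9 libraries. The head-to-head pair Tap1 and Psmb9 had r = 0.96, and the heavy chains H2-K1 and H2-D1 had r = 0.94. All points of such a correlation share the same 11 libraries, and the values are a description.

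Outside the members, 12964 genes averaged 50 counts or more, and 25 of them had r over 0.9 with the mean deviation of the 9 members. The 5 most alike were H2-Q7 (r = 0.96, rho = 0.95), Zbp1 (r = 0.94, rho = 0.95), Gbp5 (r = 0.94, rho = 0.94), H2-T22 (r = 0.94, rho = 0.90) and Tgtp2 (r = 0.94, rho = 0.94), each over 11 libraries. H2-Q7 and H2-T22 are class Ib genes, Zbp1 encodes a sensor of Z-form nucleic acids, and Gbp5 and Tgtp2 encode interferon-inducible GTPases. Without Control replicates 1 and 2 their r was between 0.86 and 0.94. Their log2 fold changes between groups ran from -0.42 for H2-T22 to -1.22 for Tgtp2, and none passed an adjusted p of 0.05 in edgeR.

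Ratios within a library compare partner genes without any scaling. For 6 ratios the group means were compared by exact permutation, two-sided, over the 330 ways to assign 4 and 7 libraries. The smallest possible p is 0.00303, and with all libraries no ratio passed 0.05, adjusted or not. The heavy chain ratio H2-K1/H2-D1 was 0.57, 0.45, 0.48 and 0.58 in Control replicates 1 to 4 and from 0.45 to 0.57 in BMAd-DTA libraries (difference of mean log2 ratio -0.06, exact permutation p = 0.494, adjusted p = 0.741). The sum of both heavy chains over B2m was 1.25, 1.62, 1.92 and 1.43 in the controls and 1.36 to 1.73 in BMAd-DTA mice (difference 0.03 on the log2 scale, exact permutation p = 0.788). Control replicate 1 was lowest and Control replicate 3 highest, so controls spanned the whole range of BMAd-DTA mice.

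Tap1/Tap2 was 2.04, 1.26, 1.10 and 1.81 in the controls and 1.13 to 1.55 in BMAd-DTA mice, a difference of mean log2 ratio of -0.26 (exact permutation p = 0.179, adjusted p = 0.430). Without Control replicate 1 the difference was -0.11, and without Control replicate 3 it was -0.41 (exact permutation p = 0.025, adjusted p = 0.1). The chains of the transporter thus stood in unequal proportion between libraries, with the ratio highest in Control replicates 1 and 4. In the proteasome, each inducible subunit was set against the constitutive subunit whose place it takes. Psmb8/Psmb5 was 4.93, 3.73, 4.25 and 5.76 in the controls and 3.67 to 5.37 in BMAd-DTA mice (difference of mean log2 ratio -0.19, exact permutation p = 0.215, adjusted p = 0.430). That difference was -0.09 without Control replicate 4, -0.30 without Control replicate 2 (exact permutation p = 0.0417, adjusted p = 0.125) and -0.26 without BMAd-DTA replicate 2 (exact permutation p = 0.0286, adjusted p = 0.171).

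Psmb9/Psmb6 was 1.12, 0.60, 0.57 and 0.94 in the controls and 0.46 to 0.66 in BMAd-DTA mice. It had the largest difference of the 6 ratios, -0.44 on the log2 scale (exact permutation p = 0.0576, adjusted p = 0.345). All 7 BMAd-DTA libraries were below the control mean, as were Control replicates 2 and 3. The difference was -0.26 without Control replicate 1 (exact permutation p = 0.208) and -0.59 without Control replicate 3 (exact permutation p = 0.0333, adjusted p = 0.1). Psmb10/Psmb7 was 0.93, 0.76, 0.86 and 0.84 in the controls and 0.73 to 0.99 in BMAd-DTA mice (difference of mean log2 ratio -0.04, exact permutation p = 0.697). In contrast to the other proteasome pairs, its highest library was BMAd-DTA replicate 2.

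**Figure D4:**
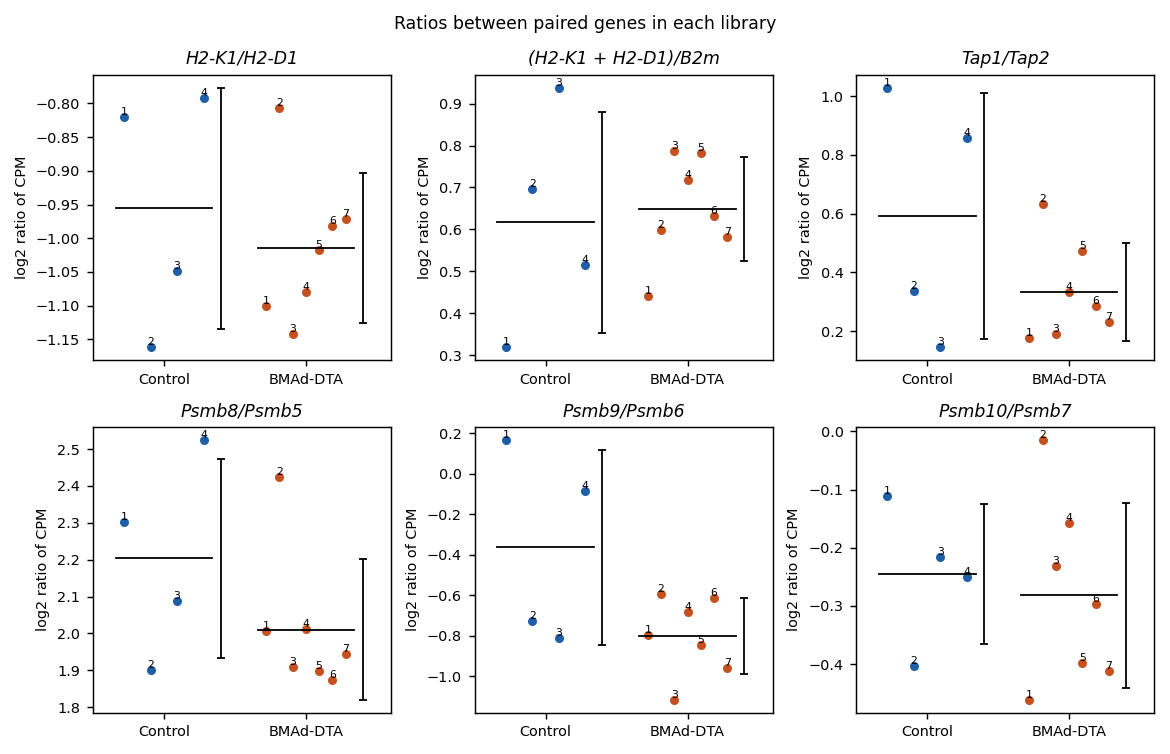
Log2 ratio of CPM between paired genes (y axis) in each library of 4 Control and 7 BMAd-DTA mice, with replicate numbers, the group mean as a line and the SD as a bar. Control replicates 1 and 4 are the highest pair of libraries for Tap1/Tap2 and Psmb9/Psmb6, and the groups overlap in all 6 panels.

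The other genes of the pathway were followed in lists by role, and no gene of any list passed an adjusted p of 0.05 in edgeR. Among 15 tested class Ib and class I-like genes, 12 had a fold change below 0, and the median was -0.26 on the log2 scale. H2-M2 was lowest at -0.65, on 0.89 to 12.1 CPM, and Mr1, which presents microbial vitamin metabolites to innate-like T cells, was highest at 0.18. H2-Q7, named above, was at 295, 74.4, 108 and 175 CPM in the controls and at a median of 108 and at most 150 CPM in BMAd-DTA mice, and H2-T22 was at 119, 58.2, 64.6 and 95.7 CPM in the controls and between 53.9 and 76.6 CPM in BMAd-DTA mice. These had the highest pair of libraries in Control replicates 1 and 4, as the members did. H2-Q6 and H2-Q7 share sequence with other class I genes, so their counts are uncertain.

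Of the 12 loading and trimming genes 11 had a fold change below 0, and the median was -0.09 on the log2 scale. Erap1, the aminopeptidase that trims peptides to length in the endoplasmic reticulum, was lowest at -0.32 (edgeR adjusted p = 0.134), and Uggt1, which senses misfolded glycoproteins, was highest at 0.06. Of 4 immunoproteasome partners, Psme1, a subunit of the interferon-inducible proteasome activator, was lowest at -0.18 and Pomp, the assembly chaperone, highest at 0.01. The 3 constitutive catalytic subunits had values of -0.09 (Psmb7), 0.04 (Psmb5) and 0.09 (Psmb6) on the log2 scale, and 11 other core subunits had a median of -0.04, from -0.13 (Psma5) to 0.04 (Psmb1). Psmb6 was at 65.7, 62.9, 72.6 and 66.6 CPM in the controls, with no excess in replicates 1 and 4. This did not hold for every proteasome gene. Psma5 (59.0, 43.8, 44.7 and 51.1 CPM in the controls) and Psme1 (103, 83.4, 78.2 and 107 CPM) had their highest pair of libraries in Control replicates 1 and 4. Psmb7 was highest in Control replicate 4 at 62.6 CPM, and Psmb5 and Psmb1 were highest in BMAd-DTA replicate 6.

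Upstream of the members, 24 regulators were tested and 14 had a fold change below 0, with a median of -0.05. At an unadjusted p under 0.05 in edgeR, 6 of the 24 were lower and 0 higher, where 8.53% of all genes tested were lower. Ifngr2, a chain of the interferon-gamma receptor, was highest at 0.16. Irf1, named after its values were seen because it drives class I transcription, was at 119, 85.2, 85.7 and 115 CPM in the controls and 72.9 to 95.1 CPM in BMAd-DTA mice. Control replicates 1 and 4 were thus above all other libraries for Irf1 too. Of the 6 interferon ligands listed none was tested. Ifng itself had 9, 1, 5 and 6 counts in the controls and 0 to 17 counts in BMAd-DTA libraries, too few to compare.

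All 15 interferon-stimulated genes tested had a fold change below 0, with a median of -0.31. Iigp1, an interferon-gamma-inducible GTPase, was lowest at -1.44 (edgeR adjusted p = 0.0841). It was at 211, 60.0, 42.6 and 149 CPM in the controls and between 27.5 and 56.8 CPM in BMAd-DTA mice, so Control replicate 3 was within the BMAd-DTA range. Cxcl10, a chemokine for activated T cells, was highest at -0.14. In DESeq2, Iigp1 (adjusted p = 0.0234), Igtp (adjusted p = 0.0140) and Irgm1 (adjusted p = 0.0290) passed as lower in BMAd-DTA mice, while none of the 9 members did.

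**Figure D5:**
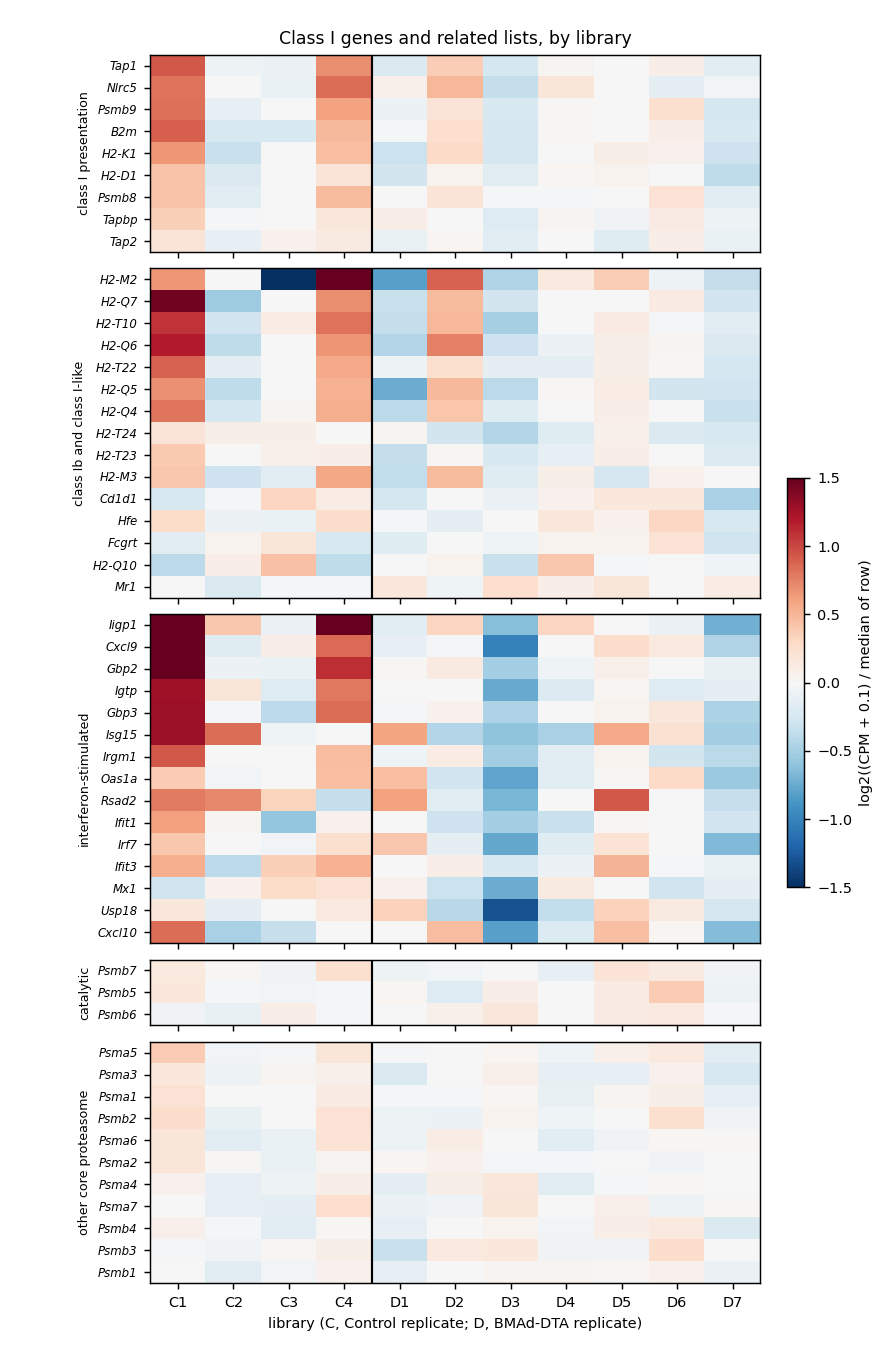
Log2 of CPM + 0.1 over the row's median for the 9 class I presentation genes, 15 class Ib and class I-like genes, 15 interferon-stimulated genes, 3 constitutive catalytic subunits and 11 other core proteasome subunits (rows) in the 11 libraries (columns). The columns of Control replicates 1 and 4 are high for all 9 class I presentation genes and for many class Ib and interferon-stimulated genes. On this scale the proteasome rows are nearly even, although these replicates are the highest pair for some of them, such as Psma5.

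On the side of the cells that read class I, 13 receptor genes were tested, and their median was -0.03 on the log2 scale. The lowest was Klra3, an NK cell receptor of the Ly49 family, at -0.43 on 0.89 to 2.70 CPM. The highest was Cd8b1, a chain of the CD8 coreceptor, at 0.89 (edgeR adjusted p = 0.245), which was at 4.13, 10.2, 15.4 and 4.30 CPM in the controls and at 9.30 to 26.0 CPM in BMAd-DTA mice. Control replicates 1 and 4, the highest for the class I genes, were the lowest of all libraries for Cd8b1. Of 8 cross-presentation genes 4 had a fold change below 0 and 4 above it, with a median of -0.03 on the log2 scale. Batf3, which specifies the dendritic cells that cross-present, was lowest at -1.39 (edgeR adjusted p = 0.11, DESeq2 adjusted p = 0.0160). Sec22b, a vesicle-fusion protein, was highest at 0.07. Batf3 rested on few reads, at 9.70 CPM in Control replicate 1 and 0.91 to 3.53 CPM in the other 10 libraries.

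Marker lists of the cells in the bone were summed per library. Pan-leukocyte markers were at 2583 and 2864 CPM in Control replicates 1 and 4 and at 2480 to 2947 CPM over all libraries, so these replicates were not outside the range of the rest. Summed T and NK cell markers were at 164 and 162 CPM in Control replicates 1 and 4, the lowest of the 11 libraries, and at 175 to 226 CPM in the others. B cell markers were highest in Control replicate 1 at 3583 CPM, and at 2106 CPM in Control replicate 4. Summed macrophage and dendritic cell markers (1372 to 1643 CPM) and endothelial markers (661 to 931 CPM) had Control replicates 1 and 4 inside the range of the others. Single macrophage and dendritic cell genes, named after their values were seen, went opposite ways. Adgre1 was highest in Control replicates 1 and 4, at 98.4 and 85.2 CPM. C1qa, C1qb, C1qc and Itgax were highest in Control replicate 1. Cd68, Csf1r and Siglech were lowest there, at 178, 281 and 16.5 CPM.

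Further markers set single libraries apart. Osteoblast and osteocyte markers were lowest in Control replicate 1 at 1793 CPM, where the other controls had 6518 to 7596 CPM and BMAd-DTA mice 9540 to 20503 CPM. Erythroid markers were lowest in Control replicate 4 at 15094 CPM, beside 20199 to 36440 CPM in the others. Skeletal muscle markers varied from 18.0 CPM in Control replicate 4 to 1351 CPM in Control replicate 3. Adipocyte markers, whose 8 genes all had a fold change below 0, were at 1060, 1126, 1464 and 691 CPM in Control replicates 1 to 4 and at 252 to 912 CPM in BMAd-DTA mice. Of all the marker lists, only that of skeletal muscle held genes at 0 in a library. The part of these cells in the class I levels was not tested, except that a leukocyte or a skeletal muscle marker score as a covariate left the members' median at -0.30 and -0.34 and none past an adjusted p of 0.05 in edgeR.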

How the data were processed

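RNA of whole distal tibiae was sequenced as strand-specific libraries of paired reads. Per the methods, the authors checked reads with FastQC 0.11.9, mapped them onto mm10 by STAR with its defaults and deposited raw counts per gene, per library and as a merged table, which repeats the per-library counts of the read strand. The deposited counts were not normalized. The annotation release is not given in the sources used here. Multimapping pairs (6.68% to 9.07% of a library) and ambiguous pairs (1.49% to 1.7%) are not in the counts, which can lower the counts of class I genes with near-identical copies. The reference is that of C57BL/6J and the mice were of mixed background, and the H2 haplotype of each mouse was not analysed here. The columns of all 11 libraries were mapped by their labels, and the labels give no batch.

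The test was edgeR's quasi-likelihood test (edgeR 4.0.16 in R 4.3.3) with genotype as the only term, after filterByExpr by group, TMM and estimateDisp, two-sided, with Benjamini-Hochberg adjustment over 16496 genes. Standard errors are the log2 fold change over the square root of F, and the 95% intervals use the test's degrees of freedom. Correlations used log2 CPM with a prior count of 2. Gene identifiers were joined without version to GENCODE M21 (99.9% of 22600 matched), and exon length is the union of a gene's exons. The fit was checked on simulated counts, and the permutation test on a small case with a known answer.

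The members and lists were chosen with earlier results of these data known. Named are the 9 members, the genes of the ratios, the largest and smallest log2 fold change and any call of each list, and the 5 genes most like the members. A gene that this rule selects is not reported here. Of the listed genes, H2-Q1, H2-Q8, H2-Q9, H2-T9, Ifnb1, Ifne, Ifnk, Ifnl2, Ifnl3, Rfxap, Lilrb3 and Ahsp were not analysed here, and H2-Q2, H2-T3, H2-M5, H2-M9, Ifng and Xcr1 did not pass the filter. Replicates are separate mice, numbered in accession order. Alternatives were DESeq2 1.42.0, limma-voom (limma 3.58.1), a robust fit, 3 scalings, 2 filters (one of them 1 CPM in at least 4 libraries), both per-library count columns, 2 marker covariates, the removal of globin, mitochondrial and muscle genes, and each library left out in turn.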

Additional observations from a re-analysis of the deposited data

Results flagged for a closer look

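In BMAd-DTA replicate 2 the log2 ratio of Psmb8 to Psmb5 was 2.42, apart from the other 6 BMAd-DTA libraries, which lay between 1.87 and 2.01. Its gap to the nearest library was 0.748 of the group's range, above Dixon's critical value for 7 samples at 95%. Psmb8 was at 107 CPM and Psmb5 at 19.9 CPM there, the second highest and the lowest value of that group. Of the 30 groups of values examined (9 genes and 6 ratios, each in both groups of mice), 1 was set apart in this way, and chance alone sets apart about 1 in 20.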

How the results depend on the processing

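In all 13 other settings and with each of the 11 libraries left out, the 9 log2 fold changes were below 0 and none passed an adjusted p of 0.05. Their median was between -0.34 and -0.25 in the other settings and between -0.44 (without Control replicate 2) and -0.10 (without Control replicate 1) with a library left out. Calls over all genes were 13 in the main test, 845 in DESeq2, 32 in the robust fit, 20 in limma-voom and with RLE scaling, 3 with the muscle covariate, and 0 to 292 with a library left out, namely 0 without Control replicates 1 or 2 or BMAd-DTA replicates 1 or 6, 292 without Control replicate 3, 89 without Control replicate 4, 8 without BMAd-DTA replicate 3 and 3 without BMAd-DTA replicate 4. The share of lower genes among these calls was 7.69% in the main test, 48.8% in DESeq2, 25% with RLE scaling and in the robust fit, 30% in limma-voom, 33.3% with the muscle covariate, 39.7% without Control replicate 3 and 66.3% without Control replicate 4. Of the 9 members, 0 to 8 had an unadjusted p under 0.05 with a library left out, and 0 in limma-voom.

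No ratio passed an adjusted p of 0.05 in any alternative. With a library left out, the difference in log2 ratio ran from -0.13 to -0.0044 for H2-K1/H2-D1, from -0.41 to -0.11 for Tap1/Tap2, from -0.30 to -0.087 for Psmb8/Psmb5 and from -0.59 to -0.26 for Psmb9/Psmb6. It turned sign for (H2-K1 + H2-D1)/B2m without Control replicate 1 or 4 (-0.0018), ranging from -0.068 (without replicate 1) to 0.14 (without Control replicate 3) with a library left out, and for Psmb10/Psmb7 in the unstranded counts (0.0061) or without Control replicate 1 (0.0080), down to -0.089 (without Control replicate 2). The cause was not tested. No paired analysis was possible because the labels give no shared replicate numbers. With 4 controls, whose log2 values varied more than those of BMAd-DTA libraries for all 9 members, the 95% intervals reached down to -0.84 (Tap1) and up to 0.09 (B2m).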
